A study of Rattus norvegicus with 9 samples.

Results

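The expression of 10 genes of nitric oxide and cyclic GMP signalling was followed in the lung of Wistar rats with and without diet-induced metabolic syndrome (MetS). They were chosen by name from the 14497 genes that carry a symbol on the array, and all 10 were measured, by 11 probes. Prkg1 had 2 probes, of which the one with the higher mean was used, and each of the others had 1. Each probe is a transcript cluster of a whole-transcript array with 28826 of them, and the deposited values are on the log2 scale. Levels are not compared between genes, since probes differ in brightness. All 10 lay above the 25th percentile of probe means (6.48), between the percentiles 28.6 for Nos1 and 90.3 for Pde5a.

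The MetS group was 3 rats given 30% sucrose in their drinking liquid for 24 weeks after weaning, and the control group was 4 rats given plain water, with the same chow in both. All animals were fasted for 7 hours before they were killed. For animal 1 of each group 2 arrays were run and averaged, so that 9 arrays stood for 7 animals. MetS rats are labelled as males, the sex of the control rats is not given, and the RNA came from whole tissue. In such bulk samples fewer cells of a type and less RNA per cell cannot be told apart.

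Nitric oxide is made from arginine by 3 synthases, the neuronal (Nos1), the inducible (Nos2) and the endothelial (Nos3). It binds the haem of soluble guanylate cyclase, a dimer of an alpha and a beta subunit, which then makes cyclic GMP, and cyclic GMP activates the protein kinase of Prkg1 and relaxes vascular smooth muscle. The phosphodiesterase of Pde5a ends the signal by cleaving cyclic GMP and is the target of drugs used in pulmonary hypertension. Arginases (Arg1, Arg2) use the same arginine to make urea and ornithine, and the hydrolase of Ddah1 degrades methylarginines, which inhibit the synthases.

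The question was whether these genes differed between MetS and control lung. The mitochondrial arginase gene Arg2 had the widest difference, with each MetS animal above each control and a mean 1.34-fold higher (95% interval 1.11 to 1.62). The other 9 genes had differences between 0.01 and 0.19 on the log2 scale, with groups that overlapped. With limma, 0 of the 10 passed an adjusted p of 0.05 over all probes, as did 0.0% of all probes. At an unadjusted p under 0.05 only Arg2 was higher, 1 gene of 10, where 3.82% of all probes were higher and 9.91% lower. Quantile normalizing the arrays again changed that split over all probes, which was 1102 higher and 2857 lower, to 2312 higher and 1993 lower. By the probes used, non-overlap with MetS above was likewise seen for Arg2 alone, against 4.88% of all probes (11.7% did not overlap in either direction). The Prkg1 probe that was not used also had MetS above without overlap. Its mean of 7.939 was close to the 7.944 of the probe used. All 10 differences were above 0, with a median of 0.15, while 53.3% of all probes were above 0 with a median of 0.01. The median of the 10 was 0.08 without MetS animal 3, and 9 of the 10 were above 0 in 6 of 20 alternative settings. Among the 17794 probes within the range of brightness of the 10 genes, 64.2% were above 0 and the median was 0.05.

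**Figure D1:**
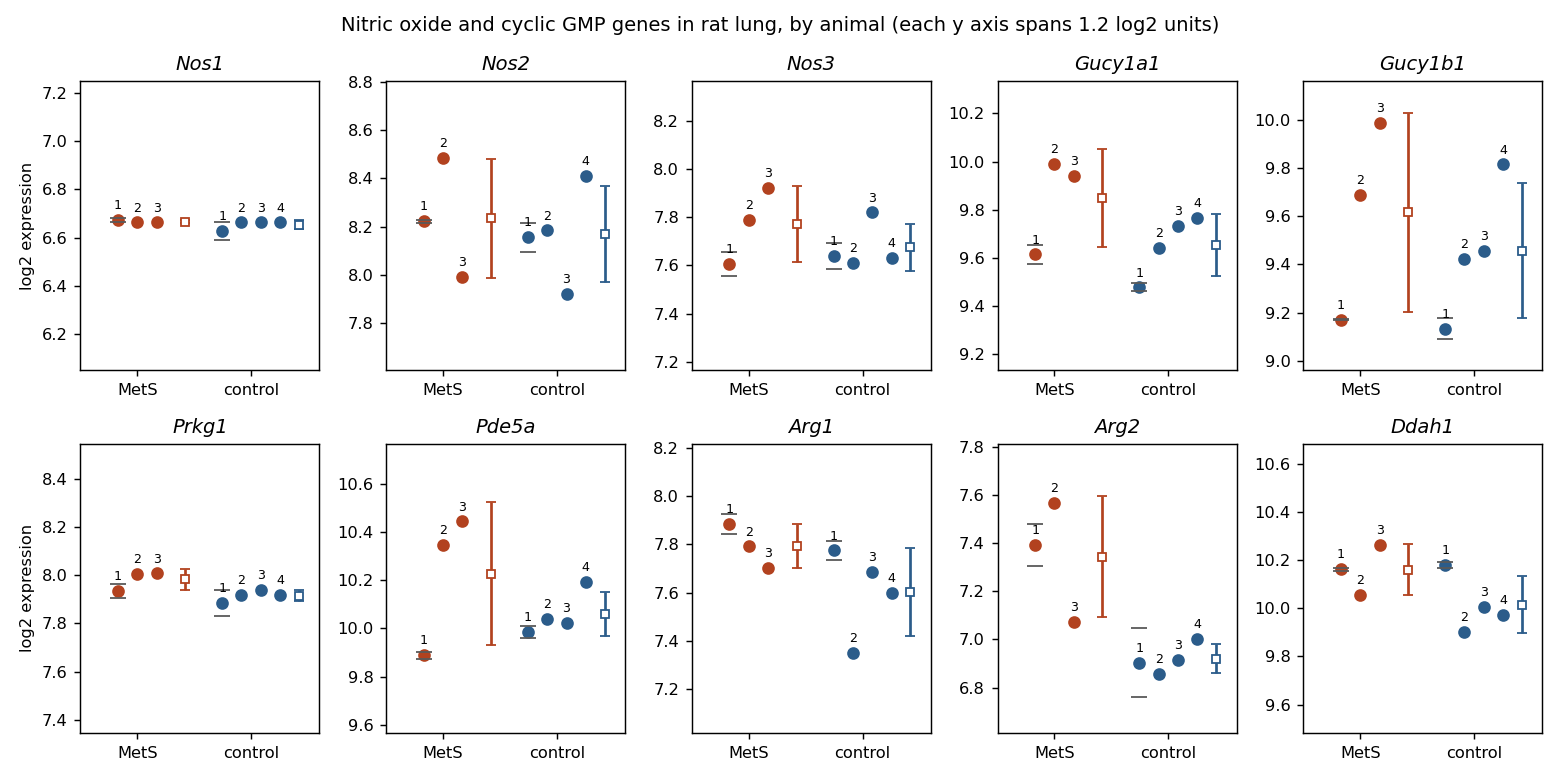
Log2 expression of the 10 genes by animal. Filled circles are animals with their numbers (MetS left, control right), grey dashes are the 2 arrays of MetS animal 1 and of control animal 1, and open squares with bars are group means ± SD (n = 3 and n = 4). For Arg2 the 3 MetS animals lie between 7.07 and 7.57 and the 4 controls between 6.86 and 7.00, and in the other 9 panels the groups overlap.

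Among the synthases, Nos3, the endothelial form that supplies the vessel wall, stood at 7.61, 7.79 and 7.92 in MetS animals 1 to 3, against 7.64, 7.61, 7.82 and 7.63 in controls 1 to 4. MetS animal 3 was the highest of the 7 and MetS animal 1 the lowest, so the groups overlapped. The means were 7.77 ± 0.16 (SD, n = 3) and 7.68 ± 0.10 (SD, n = 4), a difference of 0.10 with a 95% interval of -0.12 to 0.32 (limma, adjusted p = 0.63). That interval runs from 0.919-fold to 1.25-fold. The difference was 0.02 without MetS animal 3 and 0.18 without MetS animal 1. Markers of endothelium, the cells in which Nos3 is mainly made, were higher in 4 and lower in 3 of 7 measured genes with a median difference of 0.02. Their mean log2 level lay between 10.57 and 10.96 in MetS and between 10.72 and 10.92 in controls, and summed as linear signal it lay between 11401 and 15035 in MetS and between 12487 and 14329 in controls. MetS animal 1 was the lowest of the 7 in these markers as it was in Nos3. Control 3, the highest control in Nos3 at 7.82, was the lowest control in the markers, at 10.72. Control 4, the highest control in the markers at 10.92, stood at 7.63 in Nos3. The part of these markers in the Nos3 values was not tested.

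Nos2, the form that immune and epithelial cells can induce, had values of 8.22, 8.49 and 7.99 in MetS, against 8.16, 8.18, 7.92 and 8.41 in controls. The highest and the next highest animal were MetS animal 2 and control 4, and the lowest was control 3. The difference was 0.07 (95% interval -0.28 to 0.41, limma, adjusted p = 0.844), within the spread of either group, and its sign turned in 4 alternative settings, to -0.19 with the per-animal SD as a covariate. It was 0.19 without MetS animal 3 and 0.15 without control 4. Macrophage markers were lower in 4 of 5 measured genes, with a median difference of -0.04, a mean log2 level of 9.60 to 10.02 in MetS and 9.81 to 9.95 in controls, and summed linear signals of 5728 to 9212 and 6696 to 7977. Neutrophil markers were higher in 5 of 5, with a median of 0.22 and 0 past the adjusted threshold, mean log2 levels of 8.65 to 9.45 in MetS and 8.56 to 9.27 in controls, and summed linear signals of 3309 to 4780 and 3144 to 3962. Their part in the Nos2 values was not tested.

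Nos1, the neuronal form, carried the same deposited value of 6.66 on 7 of the 9 arrays, and the averages were 6.67, 6.66 and 6.66 in MetS and 6.63, 6.66, 6.66 and 6.66 in controls. Such repeats, with 5 or more of the 9 arrays at one value, occurred for 3.00% of all probes. The difference of 0.01 (95% interval -0.11 to 0.13, limma, adjusted p = 0.922) therefore rests on the remaining 2 arrays. They were 1 array of MetS animal 1 and 1 of control 1, and the difference was 0 without these animals. On quantile normalizing the arrays again, the Nos1 difference was 0.15 (limma, adjusted p = 0.376). Markers of neurons were lower in 4 of 5 genes with a median difference of -0.09. Their mean log2 level was 6.51 to 6.72 in MetS and 6.58 to 6.95 in controls, and their summed linear signal 489.8 to 619.5 and 505 to 677.

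The receptor of nitric oxide was read through the subunits Gucy1a1, named Gucy1a3 in older annotation, and Gucy1b1, formerly Gucy1b3. Gucy1a1, the alpha subunit, stood at 9.61, 9.99 and 9.94 in MetS, against 9.48, 9.64, 9.73 and 9.77 in controls. MetS animals 2 and 3 lay above all controls, while MetS animal 1 lay below controls 2, 3 and 4. The difference was 0.19 with a 95% interval of -0.07 to 0.46 (limma, adjusted p = 0.465). It was 0.31 without MetS animal 1 and 0.12 without MetS animal 2. Gucy1b1, the haem-binding beta subunit, had values of 9.17, 9.69 and 9.99 in MetS and of 9.13, 9.42, 9.46 and 9.82 in controls. It had the widest range of the 10 genes over the animals, 0.85, and a difference of 0.16 with the widest interval, -0.36 to 0.68 (limma, adjusted p = 0.742). Leaving out MetS animal 3 turned this difference to -0.03, and leaving out MetS animal 1 made it 0.38. It was 0.05 without control 1 and 0.28 without control 4.

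Pde5a, whose enzyme breaks down cyclic GMP, stood at 9.89, 10.35 and 10.44 in MetS and at 9.98, 10.04, 10.02 and 10.19 in controls. Again MetS animals 2 and 3 were above all controls and MetS animal 1 was the lowest of all 7. The difference was 0.17 (95% interval -0.15 to 0.49, limma, adjusted p = 0.576), and it was 0.34 without MetS animal 1. It was 0.11 when MetS animal 2 was left out and 0.06 when MetS animal 3 was.

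The 2 subunit genes and Pde5a had their lowest value in animal 1 of either group. So did Prkg1 by the probe used, within a range of 0.12 over the animals. After each gene was centred on its own mean, Gucy1a1 and Pde5a differed by a root mean square of 0.09 over the 7 animals, the second smallest value among the 45 pairs of the 10 genes. The smallest, 0.04, was that of Nos1 and Prkg1, both nearly flat. MetS animal 1 and control 1 also stood apart in a list of 6 heart and skeletal muscle markers, whose mean log2 level was 8.83 in MetS animal 1 and 7.84 and 7.69 in MetS animals 2 and 3, against 9.66 in control 1 and 7.49, 7.60 and 7.42 in controls 2 to 4. Summed as linear signal this list lay between 1323 and 4049 in MetS and between 1106 and 9762 in controls. Of the 6 markers, Actc1, Myh6, Tnnt2 and, by less, Acta1 were highest in animal 1 of each group. Myl7 and Myh4 were not, and Myl7 had its lowest value of the 7 animals in MetS animal 1, at 7.38. Any part of the muscle markers in the values of the cyclase subunits and Pde5a was not tested. MetS animal 1 and control 1 were left out in a setting chosen after seeing the data. The difference was then 0.31 for Pde5a (limma, unadjusted p = 0.019), 0.25 for Gucy1a1 (unadjusted p = 0.0239) and 0.27 for Gucy1b1 (unadjusted p = 0.16). These 2 animals held the lowest value of their group in all 3 genes, so leaving them out removed those extremes. The p-values of this setting are therefore no separate support. Each of the 3 had an adjusted p between 0.578 and 0.586 there, so none passed over all probes. In that setting 894 of 28826 probes were higher and 1040 lower at an unadjusted p under 0.05.

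**Figure D2:**
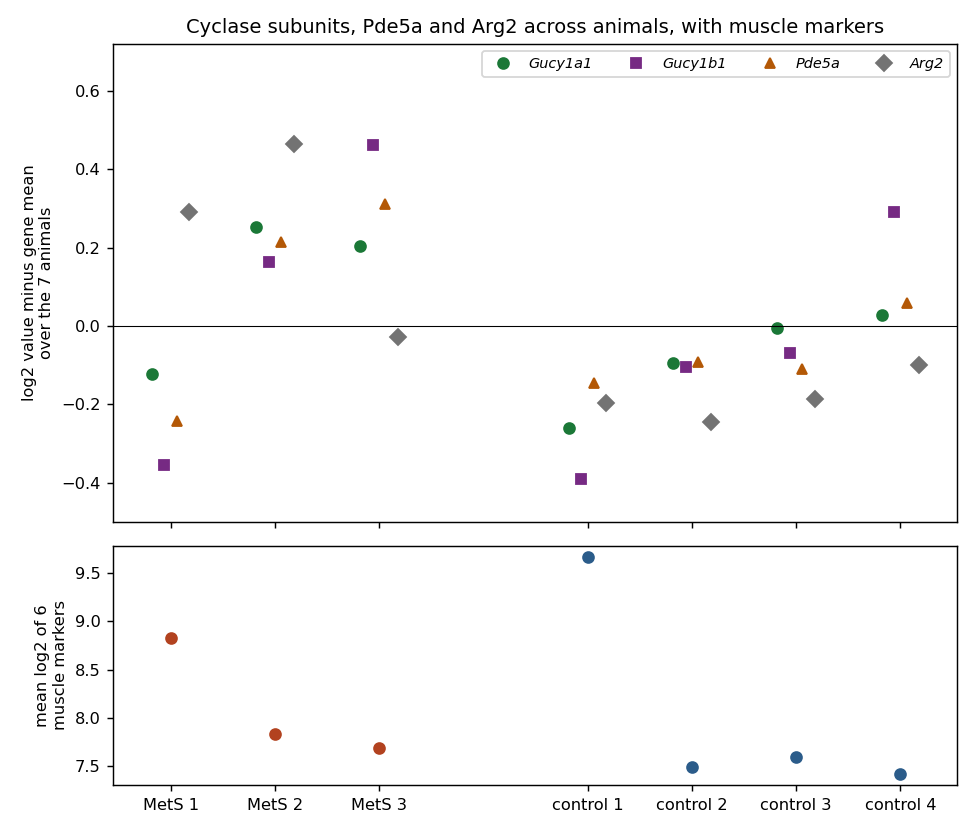
Top, log2 values of Gucy1a1, Gucy1b1, Pde5a and Arg2 in each animal minus the gene's mean over the 7 animals. Bottom, mean log2 level of the 6 heart and skeletal muscle markers (MetS red, control blue). The cyclase subunits and Pde5a are lowest in animal 1 of each group, where the mean of the muscle markers is highest. A link between them was not tested. Arg2 is lowest in MetS animal 3 and in control 2.

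Gucy1a1 and Gucy1b1 lie near each other on chromosome 2, with 1 annotated small nuclear RNA gene between them, and Pde5a lies on the same chromosome. The 250 bases before the annotated start of each are printed for these 3 genes, which lie on chromosome 2 and shared their lowest animal in each group. Prkg1, on chromosome 1, had the same lowest animals, and its window is not printed. Sequences are RefSeq's on GRCr8, from a promoter table in which 7 of the 10 genes were matched, read 5′ to 3′ along the gene's strand. Capitals mark the GC box GGGCGG and the CCAAT box, each searched on both strands, so that CCAAT can read as ATTGG.
Gucy1a1 (chr2:169779624-169779873, minus strand): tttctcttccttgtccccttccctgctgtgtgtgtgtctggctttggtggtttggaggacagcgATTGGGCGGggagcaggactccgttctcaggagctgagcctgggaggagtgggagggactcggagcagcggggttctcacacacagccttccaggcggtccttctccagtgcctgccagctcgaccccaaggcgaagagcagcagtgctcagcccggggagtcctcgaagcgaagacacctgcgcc
Gucy1b1 (chr2:169696988-169697237, minus strand): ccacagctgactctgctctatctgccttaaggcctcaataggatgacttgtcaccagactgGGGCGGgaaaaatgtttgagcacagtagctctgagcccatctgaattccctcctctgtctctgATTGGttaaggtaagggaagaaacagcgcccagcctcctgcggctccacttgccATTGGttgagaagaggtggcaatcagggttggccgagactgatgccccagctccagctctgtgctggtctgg
Pde5a (chr2:213543776-213544025, plus strand): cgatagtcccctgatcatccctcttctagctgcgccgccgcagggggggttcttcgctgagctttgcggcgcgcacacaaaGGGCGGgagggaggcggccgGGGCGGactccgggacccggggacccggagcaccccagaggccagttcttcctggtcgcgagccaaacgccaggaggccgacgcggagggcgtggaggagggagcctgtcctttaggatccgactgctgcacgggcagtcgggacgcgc
Each of the 3 windows held the GC box, 1 time in Gucy1a1, 1 time in Gucy1b1 and 2 times in Pde5a, a motif found in 30.5% of 33469 windows of this length. The CCAAT box occurred 1 time in Gucy1a1, where it shares bases with the GC box, and 2 times in Gucy1b1, against 34.0% of all windows with at least one. In Pde5a these letters are not in the window, and in none of the 3 are TATAAA, in 12.9% of all windows, or TGACGTCA, in 1.59%. The windows had a GC content of 63.2% for Gucy1a1, 54.8% for Gucy1b1 and 70.4% for Pde5a, where the median of all windows was 51.2%. The window of Prkg1 held none of these motifs, the GC box included, and had a GC content of 58.0%. Nos1 and Nos3, which did not share these lowest animals in both groups, also held the GC box 1 time each. Their windows had a GC content of 54.0% and 62.4%, and that of Nos1 held TGACGTCA too. Ddah1 held none of these motifs, at a GC content of 68.8%. The GC box was thus not particular to the 3 printed windows.

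Prkg1, the kinase through which cyclic GMP acts on smooth muscle, had values of 7.93, 8.01 and 8.01 in MetS and of 7.88, 7.92, 7.94 and 7.92 in controls. MetS animals 2 and 3 were above every control, and MetS animal 1 lay below control 3. The difference was 0.07 (95% interval -0.06 to 0.19, limma, adjusted p = 0.566). The other Prkg1 probe read 7.99, 7.96 and 8.16 in MetS and 7.68, 7.93, 7.92 and 7.93 in controls, without overlap, and its difference was 0.17 (95% interval -0.04 to 0.38, limma, adjusted p = 0.427). Smooth muscle markers, of the cells in which this kinase and Pde5a are best known, were higher in 6 of 6 genes with a median of 0.26, and 0 passed the adjusted threshold. Their mean log2 level was 8.90, 9.32 and 8.88 in MetS and 8.96, 8.58, 8.66 and 8.96 in controls, and their summed linear signal was 3626 to 4909 in MetS and 3036 to 3911 in controls. Their part in the Prkg1 and Pde5a values was not tested.

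Arg2, the arginase of mitochondria, stood at 7.39, 7.57 and 7.07 in MetS, against 6.90, 6.86, 6.91 and 7.00 in controls. The controls lay close together, and the lowest MetS animal, animal 3, was only just above the highest control, control 4. The means were 7.34 ± 0.25 (SD, n = 3) and 6.92 ± 0.06 (SD, n = 4), a difference of 0.42 with a 95% interval of 0.15 to 0.70 (limma, unadjusted p = 0.00745, adjusted p = 0.324). Single arrays of one animal spread more widely for Arg2 than for the other 9 genes. Control 1 read 7.05 on one array and 6.76 on the other, a gap of 0.29 that was wider than that of 91.2% of all probes in this animal. The 2 arrays of MetS animal 1 read 7.30 and 7.48. The higher array of control 1 thus lay just below MetS animal 3, and with the first array of each animal alone the difference was 0.36 (limma, adjusted p = 0.321).

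Over 20 alternative settings the Arg2 difference stayed between 0.30 and 0.56, above 0 in all 20, with an adjusted p between 0.113 and 0.999. It missed the unadjusted threshold with the per-animal SD as a covariate, where it was 0.30 (limma, unadjusted p = 0.103), without controls 2 and 3 at 0.39 (unadjusted p = 0.0544), and without MetS animal 1 and control 1 at 0.40 (unadjusted p = 0.0591). The SD of the log2 values over all probes was 1.93, 1.90 and 1.88 in MetS animals 1 to 3 and 1.85, 1.77, 1.76 and 1.88 in controls 1 to 4. Red cell and platelet markers were higher in 4 of 5 genes with a median difference of 0.29. Their mean log2 level was 9.64, 10.05 and 9.66 in MetS, against 9.63, 9.36, 9.28 and 9.74 in controls, and their summed linear signal was 12223.5 to 14367.5 and 9076 to 12635. MetS animal 2 was the highest of the 7 both in Arg2 and in these markers, and it was also the highest in the smooth muscle and neutrophil markers. Control 4, at 9.74, was above MetS animals 1 and 3 in the red cell and platelet markers. The part of any of these markers in the Arg2 difference was not tested.

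Arg1, the cytosolic arginase best known from the urea cycle of liver and from macrophages, had values of 7.88, 7.79 and 7.70 in MetS and of 7.78, 7.35, 7.68 and 7.60 in controls. Control 1 lay above MetS animal 3, and control 2 was the lowest of the 7. The difference was 0.19 (95% interval -0.06 to 0.45, limma, adjusted p = 0.455), and without control 2 it was 0.11. Of 6 liver markers, 5 were below the 25th percentile of probe means, and 5 of 6 were lower in MetS. Their mean log2 level was 6.11 to 6.20 in MetS and 6.12 to 6.47 in controls, and their summed linear signal 432 to 456 and 433 to 544.

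Ddah1, which clears the methylarginine inhibitors of the synthases, stood at 10.16, 10.05 and 10.26 in MetS and at 10.18, 9.90, 10.01 and 9.97 in controls. MetS animal 3 was the highest, and control 1 lay above MetS animals 1 and 2. The difference of 0.15 had a 95% interval of -0.06 to 0.35 (limma, adjusted p = 0.47). Its 2 arrays differed by 0.01 in MetS animal 1 and by 0.02 in control 1. Without MetS animal 3 the difference was 0.09.

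**Figure D3:**
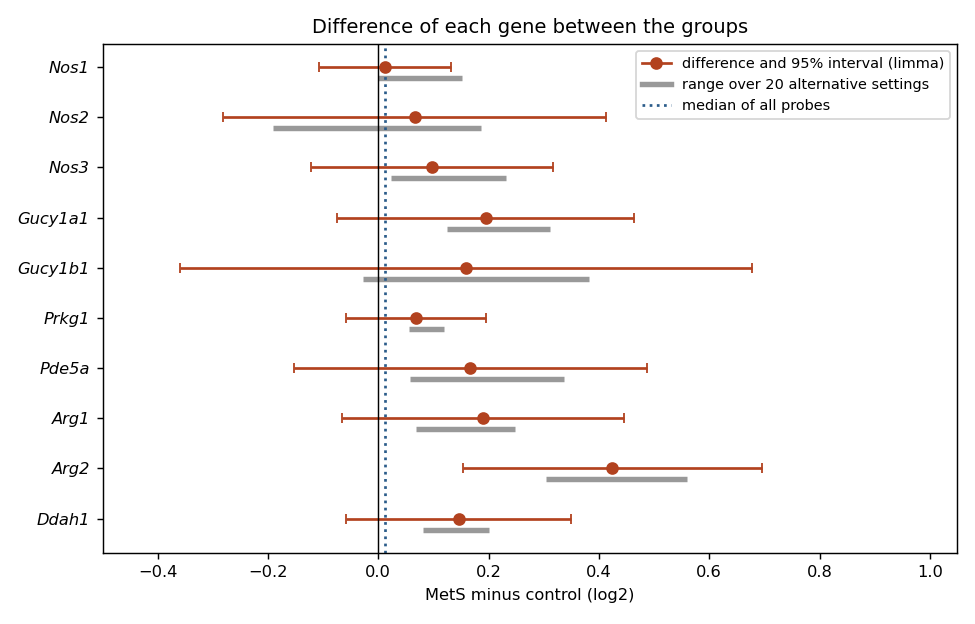
Difference of each gene, MetS minus control on the log2 scale. Red points with bars are the limma difference with its 95% interval (3 MetS and 4 control animals), grey bars are the range over 20 alternative settings, and the dotted line is the median of all probes, 0.01. The interval of Arg2 alone lies above 0, and the alternatives of Nos2 and Gucy1b1 reach below it.

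Unequal change of genes with linked roles was tested within animals, as the difference of 2 probes of an animal, over 5 pairs. Such a difference shows relative change and not a ratio of amounts. Arg2 minus Nos3, the arginase against the endothelial synthase, averaged -0.43 ± 0.36 (SD, n = 3) in MetS and -0.76 ± 0.11 (SD, n = 4) in controls, a difference of 0.33 with 2 of the 3 MetS animals above all controls (exact p = 0.171 from all 35 ways to split the animals, two-sided permutation, or 0.857 after adjustment for 5 pairs). For Arg1 minus Nos3 the difference was 0.09 (exact p = 0.571) and for Ddah1 minus Nos3 it was 0.05 (exact p = 0.686). For the cyclase subunits Gucy1a1 minus Gucy1b1 differed by 0.04 (exact p = 0.8), and Pde5a minus Gucy1b1 differed by 0.01 (exact p = 1). In all 4 of these pairs the adjusted p was 1, and the sign turned in at least 1 alternative setting. With 3 and 4 animals the smallest p this test can give is 0.0571, so it could not pass 0.05.

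Besides the 10 genes, 85 genes of the wider pathway were listed in 10 groups by role, and 78 of them were measured. Of these 47 were higher and 31 lower, the median difference being 0.03, and 0 passed over all probes in limma. At an unadjusted p under 0.05 there were 2 higher and 3 lower, next to 3.82% and 9.91% of all probes. Without overlap 3 were above and 3 below the controls, where 4.88% and 6.84% of all probes were.

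The synthases need tetrahydrobiopterin as a cofactor, and 4 of 5 measured genes of its synthesis and recycling were higher, with a median of 0.12. Pts, whose enzyme acts in the middle of that synthesis, stood at 8.21, 8.12 and 7.92 in MetS, against 7.70, 7.85, 7.71 and 7.70 in controls. The groups did not overlap, and the difference was 0.34 (95% interval 0.14 to 0.55, limma, unadjusted p = 0.00463, adjusted p = 0.324). Over the alternatives it stayed between 0.27 and 0.43. Gch1, the entry enzyme, averaged 7.87 ± 0.06 (SD, n = 3) in MetS and 7.66 ± 0.20 (SD, n = 4) in controls, without overlap by a margin too small to print, since MetS animal 3 and control 1 both stood at 7.81 (difference 0.21, limma, adjusted p = 0.43), but its difference was 0.00146 with the per-animal SD as a covariate. Qdpr, which recycles the cofactor, had a difference of 0.12, which turned to -0.13 with the same covariate.

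Genes of arginine supply and recycling were higher in 6 of 6 cases, with a median of 0.09 and 0 at an unadjusted p under 0.05. The arginine transporter gene Slc7a1 differed by 0.07, the transporter gene Slc7a7 by 0.25 and Asl, which regenerates arginine from argininosuccinate, by 0.06. The per-animal SD as a covariate turned all 3 to values below 0. Downstream of the arginases, 7 of 9 genes of polyamine and proline synthesis were higher with a median of 0.03. Odc1, which turns ornithine into putrescine, had a difference of 0.26, Aldh18a1, of proline synthesis, 0.09 and Sat1, of polyamine breakdown, 0.10. The groups overlapped for all 3, and the per-animal SD as a covariate turned the Odc1 difference to -0.03.

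Methylarginine genes were higher in 4 of 5 cases with a median of 0.06. Agxt2, an aminotransferase that can also degrade methylarginines, averaged 5.94 ± 0.13 (SD, n = 3) in MetS and 6.21 ± 0.20 (SD, n = 4) in controls (difference -0.27, limma, adjusted p = 0.382). That difference was -0.07 on quantile normalizing again and -0.000353 with the per-animal SD as a covariate. Ddah2, the relative of Ddah1, differed by 0.11 and the methyltransferase gene Prmt5 by 0.09. Partners of the synthases were higher in 7 of 10 cases with a median of 0.03. Cav1, the caveolin that binds and restrains the endothelial synthase, averaged 13.38 ± 0.03 (SD, n = 3) in MetS and 13.31 ± 0.02 (SD, n = 4) in controls, without overlap but with a difference of 0.07 near the top of the scale (limma, adjusted p = 0.546). Cav2 differed by 0.14 and Cav3 by -0.08.

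The natriuretic peptide route makes cyclic GMP without nitric oxide, and 3 of its 6 genes were higher and 3 lower with a median of -0.02. The receptor cyclases Npr2 and Npr1 differed by 0.20 and 0.16, and the peptide gene Nppa by -0.08, which turned to 0.03 on quantile normalizing again. Of 7 other cyclase and kinase genes 5 were lower, with a median of -0.12. Gucy2f, a cyclase of photoreceptors, averaged 5.77 ± 0.04 (SD, n = 3) in MetS and 6.00 ± 0.17 (SD, n = 4) in controls (difference -0.23, limma, adjusted p = 0.362). That difference was -0.00435 on quantile normalizing again. Gucy1a2, the other alpha subunit of the soluble cyclase, differed by 0.17, and Prkg2, the other cyclic GMP kinase, by -0.18, which turned to 0.07 on quantile normalizing again.

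Of 14 other genes named for phosphodiesterases of cyclic GMP or for their subunits, 6 were higher and 8 lower with a median of -0.02. Pde1c, a calmodulin-dependent form, averaged 6.44 ± 0.04 (SD, n = 3) in MetS and 6.63 ± 0.10 (SD, n = 4) in controls (difference -0.19, limma, adjusted p = 0.339), and the difference was -0.04 on quantile normalizing again. Pde6c and Pde6h, of photoreceptors, differed by -0.16 and -0.12, which turned to 0.07 for Pde6c on quantile normalizing again and to 0.05 for Pde6h with that SD as a covariate. Among targets of cyclic GMP and its kinase 4 were higher and 6 lower with a median of -0.09. Cnga1, a channel gated by cyclic GMP, averaged 5.11 ± 0.06 (SD, n = 3) in MetS and 5.35 ± 0.11 (SD, n = 4) in controls (difference -0.24, limma, adjusted p = 0.324). Quantile normalizing the arrays again turned that difference to 0.01, and the probe lay at percentile 8.48 of brightness. The myosin phosphatase subunit gene Ppp1r12a differed by 0.14 and Kcnmb1, a subunit of a potassium channel of smooth muscle, by 0.22.

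Genes listed for the scavenging of nitric oxide and for denitrosylation, its removal from thiols, were higher in 4 of 6 cases with a median of 0.11. Hbb, a globin of red cells, which bind nitric oxide, averaged 13.30 ± 0.09 (SD, n = 3) in MetS and 13.01 ± 0.17 (SD, n = 4) in controls (difference 0.29, limma, adjusted p = 0.33), and the difference was 0.11 with the per-animal SD as a covariate. It is also 1 of the red cell and platelet markers above. Cyb5r3, which reduces oxidised globins, differed by 0.19 and Txnrd1 by 0.14.

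**Figure D4:**
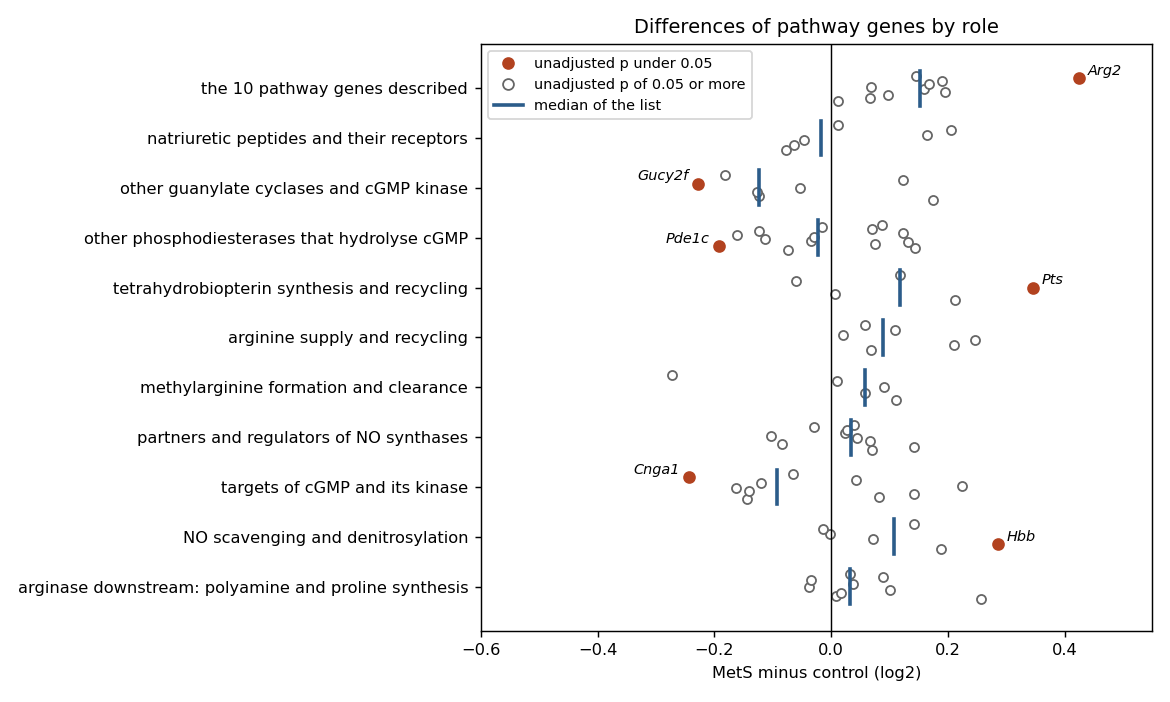
Difference of each measured gene, MetS minus control on the log2 scale, by role in the pathway. Circles are genes, filled where the unadjusted p was under 0.05, and blue lines are list medians. Arg2, Pts and Hbb are the filled points above 0, and Gucy2f, Pde1c and Cnga1 those below.

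For the 3 genes with the widest range over the animals, the genes nearest in pattern were taken by the root mean square difference of centred values over the 7 animals. For Gucy1b1 these were Postn at 0.10, Xpnpep2 at 0.11 and Cyria at 0.11. For Arg2 they were Hyal2 at 0.08, Scand1 at 0.09 and Slc28a2 at 0.10, and for Nos2 they were Htr1b at 0.06, Rflnb at 0.06 and Reep2 at 0.07. With single animals left out, between 1 and 6 of these 9 genes were still the nearest, so the choice rests on few animals.

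The lung label was checked against 7 markers of lung epithelium, which were bright in every animal. Of these 4 were higher and 3 lower with a median difference of 0.01, their mean log2 level was 13.14 to 13.21 in MetS and 13.12 to 13.16 in controls, and their summed linear signal was 71527 to 74389 and 71307 to 72538.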

How the data were processed

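Lung RNA of 7 rats was measured on 9 whole-transcript arrays. The deposited values are log2 expression per transcript cluster, and the submitters' processing notes list R 2.11.0, RMA and limma without saying what each did. Genome build and any detection call are not given in the sources used here, so a low value is not known to lie above background. Array medians lay between 7.64 and 7.69. Arrays of an animal were averaged, and all probes were fitted with lmFit and eBayes (limma 3.58.1 in R 4.3.3) as MetS minus control. P-values were adjusted by Benjamini-Hochberg over 28826 probes, with a threshold of 0.05. Exact permutation tests were run in Python 3.11.15 (numpy 2.4.6, pandas 2.3.3, matplotlib 3.10.9). Gene names came from the annotation of the platform and were updated through RefSeq gene identifiers. Of 15209 probes with 1 symbol, 15178 matched a current gene. A gene's highest-mean probe stood for it.

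Named were the 10 genes, the 3 genes of each list with the smallest p, and the 3 genes nearest in pattern to each of the 3 widest-ranging genes, placeholders left out. The genes and lists were chosen with earlier results of these data known. Simulated data with 200 changed probes among 28826 gave back 78% of log2 changes of 1 and 95.2% of log2 changes of 2 for this comparison. No change below 1 was simulated, while the differences of the 10 genes were at most 0.42, so recovery at their size is not known. The simulated probes varied independently of each other. The number of animals limits the precision of every value.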

Additional observations from a re-analysis of the deposited data

Results flagged for a closer look

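Of 45 results tested, 5 had 1 control animal far from the other 3, by Dixon's test on the 4 controls, and chance gives about 1 in 20. For Nos1 the test is void, since the other 3 controls carry 1 repeated value of 6.66 and any departure, here 6.63 in control 1, would pass, which leaves 4 results. Nos3 was highest in control 3, at 7.82, with the next at 7.64. Asl was lowest in control 3, at 7.81, with the next at 7.95. Controls 1 and 4 carried the same Asl value of 7.95 and control 2 stood at 7.96, so a small departure was enough to pass. Prkg2 was highest in control 3, at 5.45, with the next at 5.07. Pts was highest in control 2, at 7.85, with the next at 7.71.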

How the results depend on the processing

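Of 20 alternatives, 19 were planned and 1, leaving out MetS animal 1 and control 1 for their heart muscle genes, was chosen after seeing the data. Among 795 differences of 40 named genes under them, 22 reversed and 1, that of Nos1 without these 2 animals, was 0. The median difference of the 10 genes lay between 0.08 and 0.17 with single animals left out. Calls over all probes stayed at 0 except with the replicate block, where 2017 passed (138 higher and 1879 lower), none of them among the 10 genes. Control 4 is the only animal with its number, so it added nothing to the differences of that fit. The Arg2 difference, for example, was 0.452 both with the block and without control 4. The numbers are not shown to pair animals, since deviations of same-numbered animals correlated at 0.27, -0.12 and 0.34. The count of the 10 genes at an unadjusted p under 0.05 was 2 with the replicate block, 0 with the per-animal SD as a covariate, 0 without controls 2 and 3, 2 without MetS animal 1 and control 1, and 1 to 3 with single animals left out. Over all 28826 probes that count was 2204 higher and 4543 lower with the replicate block, and 483 and 540 with that SD. Without controls 2 and 3 it was 413 and 1097, and without MetS animal 1 and control 1 it was 894 and 1040. With single animals left out it was 524 to 2016 higher and 1354 to 4164 lower. With that SD, differences turned to -0.19 for Nos2, -0.0274 for Odc1, -0.0115 for Slc7a1, -0.00517 for Asl, -0.37 for Slc7a7, -0.0591 for Prmt5, 0.17 for Nppa, 0.0636 for Prkg2, 0.0519 for Pde6h and -0.13 for Qdpr. Quantile normalizing again gave 0.0297 for Nppa, 0.0695 for Prkg2, 0.0701 for Pde6c, 0.014 for Cnga1 and -0.0206 for Ddah1 minus Nos3. Without controls 2 and 3 the values were -0.0488 for Nos2, -0.0945 for Slc7a7, 0.0813 for Nppa, -0.000518 for Qdpr, -0.00321 for Pde5a minus Gucy1b1, -0.0332 for Arg1 minus Nos3 and -0.0534 for Ddah1 minus Nos3. Without MetS animal 1 and control 1, Gucy1a1 minus Gucy1b1 was -0.0214. With single animals left out, the range was -0.0604 to 0.19 for Nos2, -0.0271 to 0.38 for Gucy1b1, -0.15 to 0.00654 for Cav3, -0.0702 to 0.18 for Gucy1a1 minus Gucy1b1, -0.0673 to 0.0912 for Pde5a minus Gucy1b1, -0.036 to 0.21 for Arg1 minus Nos3 and -0.0357 to 0.11 for Ddah1 minus Nos3. The causes were not tested. No detection call was used here, so signal over background is unknown, and 3 and 4 animals leave wide intervals.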
